A study of Mus musculus with 21 samples.

Results

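Gsn, Pcp4l1, Rbfox2 and Ranbp3l are 4 genes whose liver transcripts differed at day 9 between mice given SPC3372 and mice given saline. They were selected on the measured difference between treated and saline arrays within day 3, day 9 and day 23, for differences that were largest at day 9 or changed around it. Every probe set annotated with 1 of these symbols alone was taken, which gave 4 of 18193 genes and 13 of the 45101 probe sets on the array (6 for Gsn, 1 for Pcp4l1, 4 for Rbfox2 and 2 for Ranbp3l). Because these contrasts chose the genes, their differences are given below as a description, with no test. Other genes were tested, although the lists they come from were drawn up with earlier results of these data known.

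SPC3372 is a locked nucleic acid oligonucleotide that binds and blocks microRNA-122, the most abundant microRNA of hepatocytes. Female NMRI mice, an outbred stock, were used, and the labels give day 2 as the dosing day. The groups that received 25 mg/kg SPC3372 and were killed on day 3, 9 or 23 held 3 mice each, as did the groups that received the saline vehicle and were killed on the same days. No genetic change was made in any group. Liver RNA was hybridised to Affymetrix mouse arrays in array sets that the labels call p0617 (15 arrays: day 3, day 9 and the treated mice of day 23) and p0621 (6 arrays: both groups of day 23). The 21 arrays thus came from 18 mice, and the fit used 18 arrays, 1 per mouse, with p0621 for day 23. Some mouse numbers in the labels recur on different days and were read as separate animals, so a number below names a mouse only within its day and group. Levels are log2 values made by RMA, a method that corrects background, equalises the distributions of the arrays and summarises the probes of a probe set. A difference of 1 on this scale is a doubling.

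Over all probe sets, different mice of a group correlated at 0.9919 to 0.9949, and array medians lay between 4.75 and 4.81. The hepatocyte genes Alb, Apoa1 and Ttr had levels of 14.49 to 14.93 on every array, among the brightest probe sets. The mice of a group are called biological replicates by the submitters, and their number limits the precision of every value. A whole liver sample mixes cell types, so fewer cells of a type and less RNA per cell cannot be told apart.

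Gelsolin, the product of Gsn, severs actin filaments and caps their growing ends when calcium rises, and a secreted form clears actin from plasma. Pcp4l1 encodes a small protein with an IQ motif that resembles Pcp4, a regulator of calmodulin, the main calcium sensor of cells. Rbfox2 is an RNA-binding protein that directs the choice of alternative exons. Ranbp3l is related to Ranbp3, a cofactor of nuclear export through the exportin Xpo1 and the GTPase Ran. In mouse cells Ranbp3l has been described as an export factor for Smad1 and Smad5, which transduce BMP signals. The gene products thus belong to separate processes, and they are described in the order actin, calmodulin, splicing and nuclear export.

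The stretch of 250 bases before the transcription start was available for 3 of the 4 genes, as 5 windows, in the RefSeq promoter table of assembly GRCm38.p6. The 3 windows printed here, each written 5′ to 3′ on the strand of the gene, show the DNA next to the starts of a gene that was higher over several days, one that was highest at day 9 and one whose saline day 9 level stood apart. Capitals mark matches to the motifs searched on both strands: the TATA box (TATAAA), the CCAAT box (CCAAT, reverse ATTGG), the GC box (GGGCGG, reverse CCGCCC), the E-box (CACGTG) and the core of the HNF1 site (GTTAAT, reverse ATTAAC). The motifs were chosen with the sequences in view, and no matches overlapped in the windows shown.

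Gsn, the third annotated start, chr2:35282130-35282379, plus strand: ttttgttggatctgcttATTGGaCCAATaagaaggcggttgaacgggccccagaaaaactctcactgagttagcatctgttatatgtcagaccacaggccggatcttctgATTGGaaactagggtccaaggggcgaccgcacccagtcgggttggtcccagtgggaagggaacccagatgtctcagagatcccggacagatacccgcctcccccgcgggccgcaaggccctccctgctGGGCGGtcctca
Pcp4l1, chr1:171196269-171196518, minus strand: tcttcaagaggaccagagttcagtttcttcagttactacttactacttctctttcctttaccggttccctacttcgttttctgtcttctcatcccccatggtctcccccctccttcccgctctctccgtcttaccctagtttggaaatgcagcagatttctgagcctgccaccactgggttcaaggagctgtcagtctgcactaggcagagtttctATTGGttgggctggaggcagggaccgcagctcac
Ranbp3l, chr15:8967699-8967948, plus strand: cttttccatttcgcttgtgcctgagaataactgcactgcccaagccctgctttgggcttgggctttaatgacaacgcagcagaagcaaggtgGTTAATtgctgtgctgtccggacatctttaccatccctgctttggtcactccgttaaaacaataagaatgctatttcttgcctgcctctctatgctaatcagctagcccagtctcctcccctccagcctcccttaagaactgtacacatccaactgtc

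The Gsn window held 3 CCAAT box matches, which begin 233, 227 and 140 bases before the start, and a GC box 12 bases before it. The window of Pcp4l1 held 1 CCAAT box, 34 bases before the start, and that of Ranbp3l held 1 HNF1 core, 158 bases before the start. The other Gsn starts, at chr2:35256109-35256358 and chr2:35266494-35266743, had GC boxes, and the second of them a CCAAT box. No TATA box or E-box letters were found in the 5 windows. Among 32851 windows of the same length, 33.8% held a CCAAT box, 32.7% a GC box, 12.4% a TATA box, 6.43% an HNF1 core and 6.02% an E-box. A match is a description of the letters and not evidence of binding, and no motif was shared by all 3 genes.

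Gsn averaged higher in treated than in saline liver on every day, with the widest gap between the groups at day 9. The brightest of its probe sets, 1456312_x_at, read 8.50, 8.10 and 8.39 in treated mice of day 3, against 7.30, 8.06 and 7.48 in saline mice. At day 9 it read 8.91, 9.21 and 9.12 in treated mice, against 7.53, 7.27 and 7.49 in saline mice. At day 23 it read 9.69, 8.96 and 7.99 in treated mice, against 7.44, 8.10 and 7.49 in saline mice. All treated mice lay above all saline mice at day 3, by 0.042, and at day 9, by 1.38. At day 23 mouse 38 lay among the saline mice while mouse 36 had the highest value of the whole experiment. The difference was 0.72 at day 3 (SE 0.30, 1.64-fold), 1.65 at day 9 (SE 0.30, 3.14-fold) and 1.20 at day 23 (SE 0.30, 2.30-fold). Without mouse 38 the day 23 difference was 1.65, equal to that of day 9, and without mouse 36 it was 0.80.

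The group means of Gsn at day 9 were 9.08 ± 0.15 in treated and 7.43 ± 0.14 in saline mice (SD, n = 3 each). At day 23 they were 8.88 ± 0.85 in treated and 7.68 ± 0.37 in saline mice. The spread of the treated mice was thus far wider at day 23 than at day 9, while their means differed little. The order of the treated day 23 mice, 36 above 37 above 38, was the same on the p0617 arrays of the same mice, which read 9.52, 8.99 and 7.76. That order was also the same in the other 3 bright Gsn probe sets on both array sets, so the spread between these mice recurred in a second hybridisation of each.

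The other bright Gsn probe sets, 1436991_x_at, 1437171_x_at and 1415812_at, differed by 1.51, 1.57 and 1.69 at day 9. Their day 3 differences were 0.50, 0.51 and 0.65 and their day 23 differences 1.47, 1.43 and 1.30, in the same order. In 1436991_x_at and 1437171_x_at the difference between groups was thus nearly as large at day 23 as at day 9, while in 1415812_at it was 0.39 smaller, as in 1456312_x_at, where it was 0.45 smaller. The 2 dim probe sets, below the median level of the array (4.78), behaved differently from each other. 1456569_x_at differed by 0.25, 0.57 and 0.34 at days 3, 9 and 23, and 1456568_at by -0.05, -0.17 and 0.11. Between pairs of the 4 bright probe sets the correlation over 18 arrays was 0.954 to 0.990, and 0.901 to 0.992 for deviations from the group means. These probe sets report on 1 gene and are not independent measurements.

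**Figure D1:**
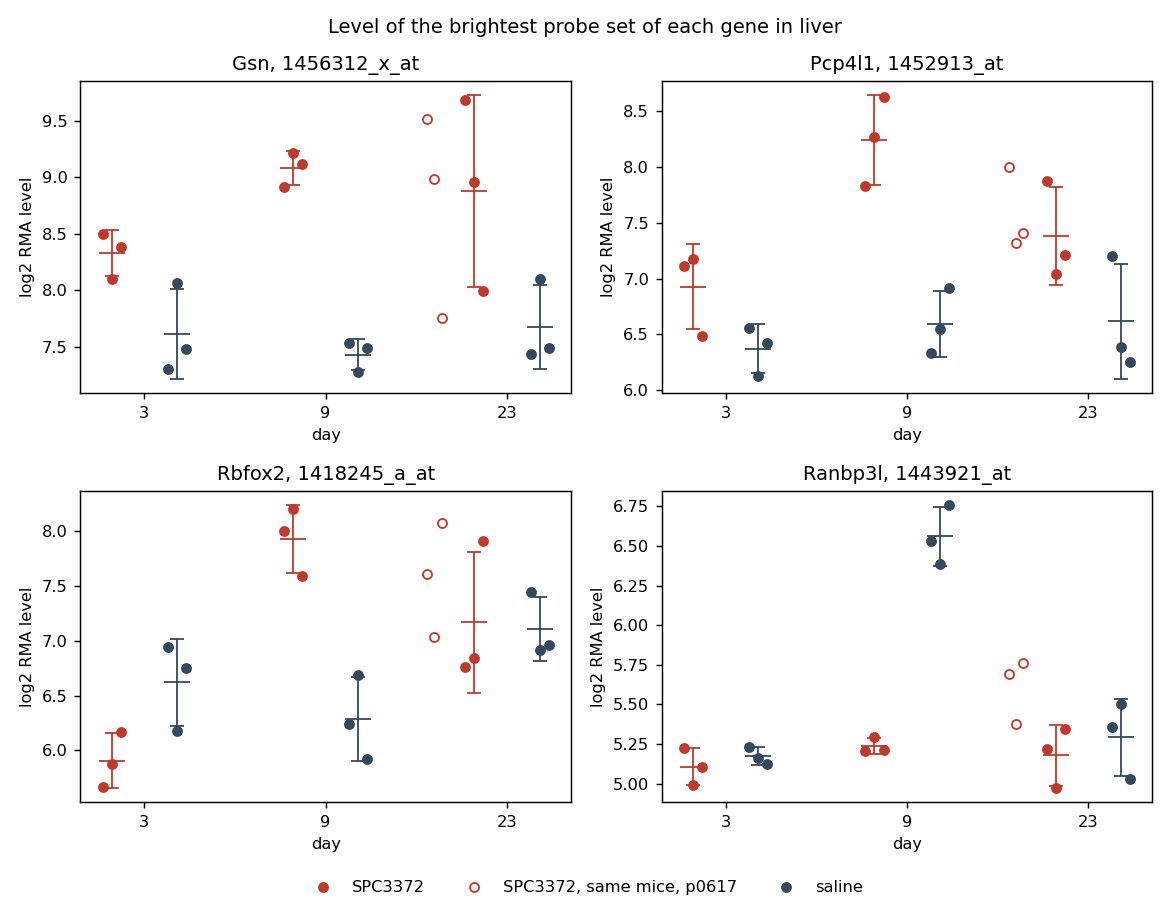
Log2 RMA level (vertical axis) of the brightest probe set of each gene at days 3, 9 and 23 (horizontal axis), with filled red points for SPC3372 mice, dark points for saline mice, and bars for the mean ± SD of 3 mice. Open points are the treated day 23 mice on the p0617 arrays. Gsn, Pcp4l1 and Rbfox2 lie higher in treated mice at day 9, whereas for Ranbp3l the saline mice of day 9, at 6.39 to 6.76, stand apart from every other group.

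Pcp4l1 was highest in treated mice of day 9 and lay between that level and the saline level in treated mice of day 23. Its only probe set, 1452913_at, read 7.12, 7.18 and 6.49 in treated mice of day 3, against 6.56, 6.13 and 6.42 in saline mice. At day 9 it read 7.83, 8.27 and 8.63 in treated mice, against 6.33, 6.55 and 6.91 in saline mice. At day 23 it read 7.88, 7.04 and 7.22 in treated mice, against 7.21, 6.39 and 6.25 in saline mice. The groups overlapped at day 3 and day 23 and were separate at day 9, where the lowest treated mouse lay 0.91 above the highest saline mouse. The means at day 9 were 8.24 ± 0.40 in treated and 6.60 ± 0.30 in saline mice (SD, n = 3 each), a difference of 1.65 (SE 0.27, 3.13-fold). The difference was 0.56 at day 3 (1.47-fold) and 0.76 at day 23 (1.70-fold). Among saline mice the mean differed by 0.23 (SE 0.27) between day 9 and day 3, whereas among treated mice it differed by 1.32 (SE 0.27, 2.49-fold).

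Rbfox2 was lower in treated than in saline mice at day 3, higher at day 9 and close to saline at day 23. Its brightest probe set, 1418245_a_at, read 5.67, 5.88 and 6.17 in treated mice of day 3, against 6.94, 6.18 and 6.75 in saline mice. At day 9 it read 8.0, 8.20 and 7.59 in treated mice, against 6.24, 6.69 and 5.92 in saline mice. At day 23 it read 6.76, 6.84 and 7.91 in treated mice, against 7.44, 6.92 and 6.96 in saline mice. No treated mouse overlapped a saline mouse at day 3 or day 9, with a gap of 0.0099 between the groups at day 3 and of 0.90 at day 9. At day 23 mouse 38 was the highest and the other treated mice were the lowest of the 6 arrays. The difference was -0.72 at day 3 (SE 0.28, 1.64-fold lower), 1.65 at day 9 (SE 0.28, 3.13-fold higher) and 0.06 at day 23 (SE 0.28).

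The change in the Rbfox2 difference between day 3 and day 9 was 2.37 (SE 0.40), larger in size than in the brightest probe sets of the other 3 genes, and between day 9 and day 23 it was -1.58 (SE 0.40). Most of the first change lay in the treated mice, whose mean was 2.03 higher at day 9 than at day 3 (4.08-fold), while the saline mean differed by -0.34. The 3 other Rbfox2 probe sets all lay below the median level of the array. 1418247_s_at differed by -0.14, 0.30 and 0.03 at days 3, 9 and 23, and its groups were separate at day 9. 1418246_at differed by -0.03, 0.14 and -0.11, and 1434938_at by -0.11, -0.07 and 0.03. The day 9 difference of Rbfox2 was thus above 1 in only 1 of its 4 probe sets.

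Ranbp3l was 2.50-fold lower in treated than in saline liver at day 9, and the group that stood apart was the saline one. Its brighter probe set, 1443921_at, read 5.22, 4.99 and 5.11 in treated mice of day 3, against 5.23, 5.16 and 5.12 in saline mice. At day 9 it read 5.21, 5.29 and 5.21 in treated mice, against 6.53, 6.39 and 6.76 in saline mice. At day 23 it read 5.22, 4.97 and 5.35 in treated mice, against 5.35, 5.50 and 5.03 in saline mice. The 3 saline day 9 arrays lay at 6.39 to 6.76, and the other 15 arrays of the fit between 4.97 and 5.50 with a median of 5.21. Across the array, 0.46% of probe sets had all 3 saline day 9 arrays above the other 15. The day 9 difference was -1.32 (SE 0.12), beside -0.06 at day 3 and -0.11 at day 23.

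Between day 3 and day 9 the Ranbp3l mean differed by 1.39 (SE 0.12, 2.62-fold) among saline mice and by 0.13 (SE 0.12) among treated mice. The means at day 9 were 5.24 ± 0.05 in treated and 6.56 ± 0.19 in saline mice (SD, n = 3 each), and those of day 3 were 5.11 ± 0.11 in treated and 5.17 ± 0.06 in saline mice. The contrast at day 9 thus lay in a higher saline level. In p0617, the array set of day 9, the treated mice of day 23 read 5.69, 5.37 and 5.76, also below the saline mice of day 9. For Gsn, Pcp4l1 and Rbfox2 the same saline difference was -0.18, 0.23 and -0.34. The second Ranbp3l probe set, 1455707_at, lay below the median level and read nearly alike in saline mice of both days, with a difference of 0.01. Its treated-minus-saline difference was -0.15, -0.16 and -0.28 at days 3, 9 and 23, so the saline elevation was seen in 1 of the 2 probe sets.

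**Figure D2:**
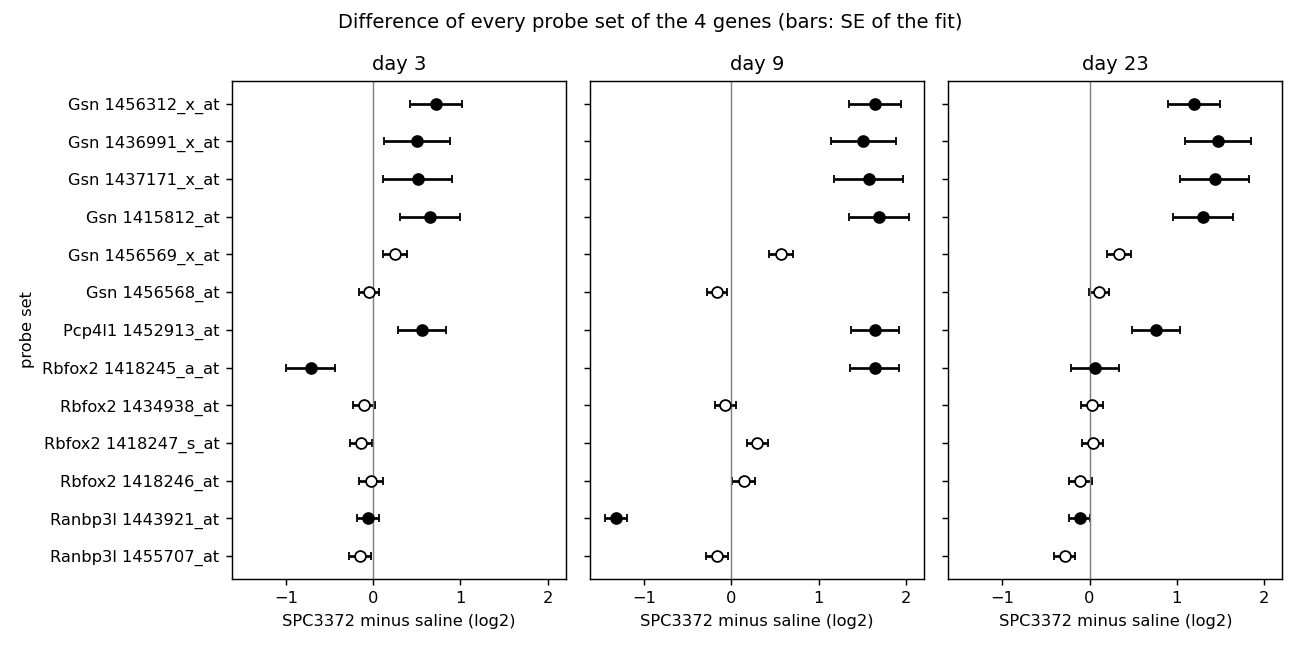
Difference between SPC3372 and saline mice on the log2 scale (horizontal axis) for each of the 13 probe sets (vertical axis) at days 3, 9 and 23, with bars for the SE of the fit. Filled points are probe sets above the median level of the array and open points those below it. At day 9 the bright Gsn probe sets lie between 1.51 and 1.69, while the dim probe sets of Rbfox2 lie between -0.07 and 0.30 and that of Ranbp3l at -0.16.

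Of the 13 probe sets, 7 lay above the median level of the array and 6 below it. At day 3 the treated arrays lay wholly above the saline arrays in 3 of the 13, all of Gsn, and wholly below in 1, of Rbfox2, beside 9.02% of all probe sets in each direction. At day 9 they lay wholly above in 8 (5 of Gsn, 1 of Pcp4l1 and 2 of Rbfox2) and wholly below in 1, of Ranbp3l, beside 9.08% and 9.8% of all probe sets. At day 23 the groups overlapped in all 13 probe sets, beside 8% of all probe sets wholly above and 8.65% wholly below. The genes were chosen on the contrasts of all 3 days, so nothing is read from their counts on any day.

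The treated day 23 mice, hybridised in both array sets, show how far a level moves between hybridisations. Rbfox2 in mouse 36 read 6.76 in p0621 and 7.61 in p0617, a difference of -0.85 that only 0.282% of probe sets exceeded in that mouse. In mice 37 and 38 Rbfox2 differed by -0.19 and -0.17. Ranbp3l read lower in p0621 than in p0617 in all 3 mice, by -0.47, -0.40 and -0.41. Gsn differed by 0.17, -0.03 and 0.24, and Pcp4l1 by -0.12, -0.27 and -0.19. With the p0617 arrays in place of p0621 for the treated mice, the day 23 difference of Rbfox2 was 0.47 and that of Ranbp3l 0.31, which sets treated arrays of 1 set against saline arrays of the other.

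Within p0617, which also holds the day 9 mice, the treated level of Gsn at day 23 differed from that at day 9 by -0.33 and that of Pcp4l1 by -0.67. Rbfox2 differed by -0.36 and Ranbp3l by 0.37. On this array set, then, treated Rbfox2 at day 23 (7.57 ± 0.52, SD, n = 3) was closer to its day 9 level of 7.93 ± 0.31 than the p0621 arrays show. No saline mice of day 23 were on p0617 arrays.

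**Figure D3:**
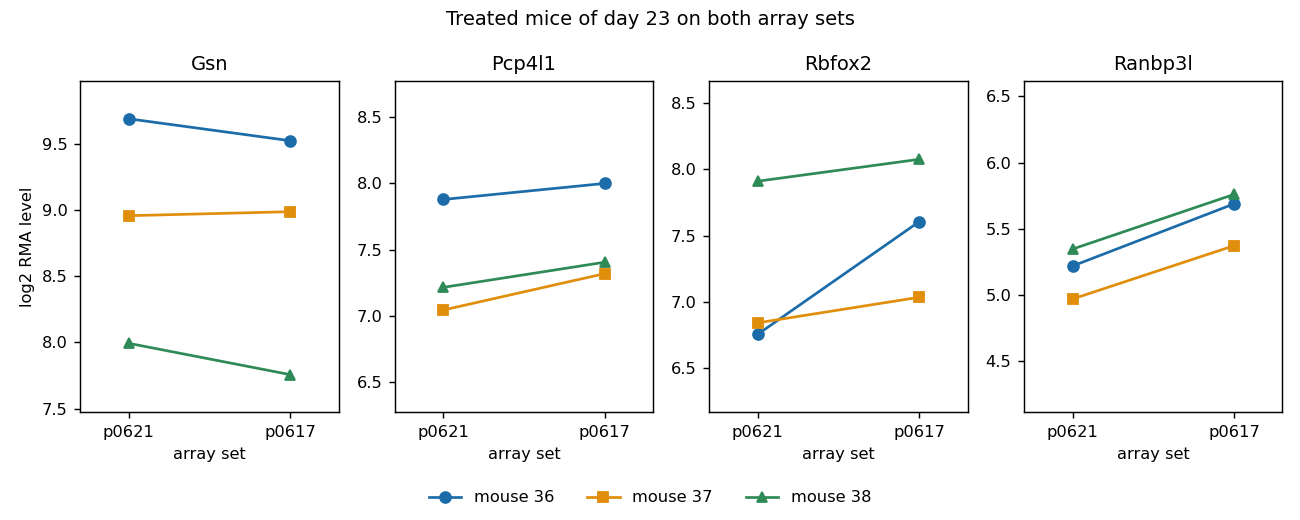
Log2 RMA level (vertical axis, the same span in each panel) of the brightest probe set of each gene in the 3 treated mice of day 23 on the p0621 and p0617 arrays, with a line per mouse. The lines of Ranbp3l run parallel and read 0.40 to 0.47 lower in p0621, whereas Rbfox2 lies 0.85 lower in p0621 in mouse 36 and at most 0.19 lower in the others.

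The brightest probe sets of Gsn, Pcp4l1 and Rbfox2 varied more between mice of a group than most probe sets. The residual SD of the fit was 0.43, 0.39 and 0.40 for them, larger than in 98.3%, 97.7% and 97.9% of probe sets. That of Ranbp3l was 0.16, larger than in 59.7%. Across 18 arrays the levels of Gsn and Pcp4l1 correlated at 0.74, those of Pcp4l1 and Rbfox2 at 0.56 and those of Gsn and Rbfox2 at 0.30. After group means were removed, Gsn and Pcp4l1 correlated at 0.11 and Pcp4l1 and Rbfox2 at -0.10, while Gsn and Rbfox2 correlated at -0.76. Arrays that read higher than their group for Gsn thus tended to read lower for this Rbfox2 probe set. The 3' to 5' covariate described below moved their day 9 differences in opposite directions, to 0.91 for Gsn and 2.29 for Rbfox2. Its part in this correlation was not tested. At day 23 in p0621, mouse 36 was the highest treated mouse for Gsn and the lowest for Rbfox2, and mouse 38 the reverse. Without these 2 arrays the correlation of deviations was -0.59 for Gsn and Rbfox2, -0.30 for Gsn and Pcp4l1, which turns its sign, and 0.41 for Gsn and Ranbp3l. In p0617 mouse 37 and not mouse 36 was the lowest of the 3 for Rbfox2. Ranbp3l correlated with the others at -0.44 to -0.21 in levels and at 0.08 to 0.32 in deviations. These correlations describe arrays that share groups and normalization.

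The genes whose levels were most like those of each gene over the 18 arrays were sought among 11693 genes above the median level. For Gsn they were Met, the hepatocyte growth factor receptor (r = 0.88), Cfap36, Atg12, an autophagy conjugation protein, Ift122 and 1810030O07Rik (0.84). Met differed by 0.48, 0.62 and 0.56 between treated and saline mice at days 3, 9 and 23. For Pcp4l1 they were Rxra, the retinoid X receptor alpha (0.88), Rdh9, a retinol dehydrogenase, Terf2ip, 1810058I24Rik and Tnks2 (0.85). Rdh9 differed by 0.90, 1.36 and 1.07. For Rbfox2 they were Psmd1, a proteasome subunit (0.87), Abhd6, a lipid hydrolase, Nufip2, Urm1 and Nsfl1c (0.85). Nufip2, the most changed of these at day 9, differed by -0.41, 0.90 and 0.42. For Ranbp3l they were Ranbp10 (0.87), Cyp8b1, the sterol 12-alpha-hydroxylase of bile acid synthesis, Ube2b, Lrrfip1 and Lsm10 (0.79). Likeness over the same arrays chose Met, Rdh9 and Nufip2, so differences that resemble those of Gsn, Pcp4l1 and Rbfox2 follow from the choice.

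The 5 genes most like Ranbp3l also shared its saline pattern. Their saline mean was higher at day 9 than at day 3 by 0.60 for Ranbp10, 0.69 for Cyp8b1, 0.46 for Ube2b, 0.21 for Lrrfip1 and 0.43 for Lsm10, each less than the 1.39 of Ranbp3l. Cyp8b1 averaged 11.26 in treated and 11.67 in saline mice of day 9. Likeness of levels chose these genes, so their shared direction follows from the choice. By deviations from the group means, the genes most like Gsn were Adck1 (r = 0.88), Cwc15, Dll4, a Notch ligand of endothelium, Ccn2, the connective tissue growth factor, and Col6a2, a collagen VI chain (0.84). For Pcp4l1 they were Cwc22 (0.83), Tmem47, Dusp6, a phosphatase of ERK, Ccdc84 and Azgp1 (0.79). For Rbfox2 they were Fbxo22 (0.92), Fads6, Dbt, of branched-chain amino acid breakdown, Ass1, of the urea cycle, and Set (0.82). For Ranbp3l they were Poldip3 (0.91), Nrg2, Prr32, Nkain1 and 2310001K24Rik (0.76).

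The relatives and pathway partners of the 4 genes were tested with limma, with Benjamini-Hochberg adjustment over 45037 probe sets. Rai14 and Hjv among them were known from earlier results of these data to differ, so their tests restate those results. By that test 1.4% of probe sets rose and 0.961% fell at day 3, 1.14% rose and 0.457% fell at day 9, and 0.0711% rose and 0.0511% fell at day 23. The median difference over all probe sets was 0.0061, -0.016 and -0.0036 at the 3 days. In 9 lists of related genes, the list medians at day 9 ran from -0.0041 to 0.26. The lowest was that of the Ran cycle and nuclear transport, and the highest that of TGF-beta ligands, receptors and responsive genes. Many calls named below were lost when an array was left out, which also leaves fewer samples. Of 20 such calls at day 3, those of Capg, Rai14, Tmsb10, Msn, Hjv, Marco, Clec4f and Gzma (8 in all) were kept whichever array of that day was left out, and of 13 at day 9 those of Rai14 and Ppp3r1.

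Among the 7 other gelsolin family genes, 1 rose at day 3 and none passed at day 9 or day 23 (1 and 0 at an unadjusted p under 0.05). Capg, a capping protein of the family, rose 1.82-fold at day 3 (log2 0.87, SE 0.15, limma adjusted p = 0.00419; 0.00166 to 0.163 over its alternatives). It differed by 0.40 at day 9 (adjusted p = 0.216). Flii, Svil, Avil, Vill, Vil1 and Scin differed by -0.16 to 0.15 at day 9, and none passed. Scin and Vil1 were below the median level. The family without Gsn had a median difference of 0.054 at day 9.

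Among 27 other regulators of actin filaments, 2 rose and 2 fell at day 3, 1 rose and 1 fell at day 9, and none passed at day 23 (3 at an unadjusted p under 0.05). Rai14, which bears ankyrin repeats and binds actin, fell by 3.90 at day 3 (limma adjusted p = 6.01e-10) and by 1.42 at day 9 (adjusted p = 0.000244). Tmsb10 and Tmsb4x, thymosins that hold actin monomers, rose 1.83-fold and 1.57-fold at day 3, and Cfl2, a cofilin, fell by 0.42. Capza1, a subunit of the actin capping protein, rose 1.27-fold at day 9 (adjusted p = 0.0259). The list's median was 0.056 at day 9.

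Of 27 genes of actin and the contractile cytoskeleton, 2 rose at day 3 (Msn, 1.51-fold, and Tpm4, 1.44-fold), 2 rose at day 9 and none passed at day 23 (4 at an unadjusted p under 0.05). Actg1, cytoplasmic gamma-actin, reached 12.23 ± 0.03 in treated and 11.48 ± 0.40 in saline mice of day 9 (SD, n = 3 each), a 1.68-fold rise (limma adjusted p = 0.0270; 0.0152 to 0.230 over its alternatives). Its call was lost without treated replicate 1, 2 or 3 (adjusted p = 0.0857, 0.0603 and 0.0884) or saline replicate 2 (0.0642). Tpm4, a tropomyosin, rose 1.48-fold at day 9 (adjusted p = 0.0154), and lost its call without treated replicate 1 or 2 or saline replicate 3. Actb differed by 0.24 (adjusted p = 0.608). The list's median of 0.24 at day 9 stood beside -0.016 for all probe sets. The smooth muscle genes Acta2, Myl9 and Tagln, picked out after their values were seen, had differences of 1.03, 0.93 and 0.57 at day 9 (SE 0.52, 0.45 and 0.36). These were larger than or close to those of the called genes, and none passed (limma adjusted p = 0.380, 0.352 and 0.504). Other smooth muscle genes of the list, Myh11, Actg2 and Cnn1, differed by 0.39, 0.28 and -0.01. The list of smooth muscle markers had a median of 0.22 at day 9, with members from -0.20 to 1.03.

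Among 13 genes of calmodulin and its binders, Iqgap1 rose 1.45-fold at day 3 and Ppp3r1, the regulatory subunit of calcineurin, rose 1.39-fold at day 9 (limma adjusted p = 0.00649; 0.00340 to 0.785 over its alternatives). None passed at day 23 (3 at an unadjusted p under 0.05). Ppp3r1 kept its call without any 1 array of day 9 but lost it in other settings. With its probe sets averaged it differed by 0.15 (adjusted p = 0.785), and its adjusted p was 0.0629 with the 3' to 5' covariate described below and 0.0838 with the day's own arrays alone. Pcp4, the closest relative of Pcp4l1, was below the median level and differed by -0.14 at day 9 (adjusted p = 0.675), and Nrgn by 0.07.

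None of 22 other RBFOX family members and tissue splicing regulators passed the limma test on any day (1, 1 and 6 at an unadjusted p under 0.05). Rbfox1 differed by -0.01 and Rbfox3 by -0.22 at day 9 (adjusted p = 0.986 and 0.385). Of 27 SR and hnRNP splicing factors, U2af1 and Srsf3 fell at day 3, by 0.37 and 0.35, and lost their calls in 4 and 6 of the 6 fits that left out an array. None passed at day 9 or day 23 (6 and 5 at an unadjusted p under 0.05). The change in the difference between day 3 and day 9 was -0.11 for Rbfox1 and -0.33 for Rbfox3 (limma adjusted p = 0.866 and 0.487).

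Of 29 other genes of the Ran cycle and nuclear transport, none passed at day 3 or day 23 by limma (8 and 4 at an unadjusted p under 0.05), and at day 9 1 rose and 1 fell. Ipo5, an importin, rose 1.35-fold (limma adjusted p = 0.0288) and Kpnb1, importin beta, fell by 0.39 (adjusted p = 0.0480). Ranbp3, Ran and Xpo1 differed by 0.15, -0.07 and 0.20 at day 9, and none passed. In the list of 29 BMP and SMAD genes, 2 rose at day 3, 3 rose and 1 fell at day 9, and none passed at day 23 (8 at an unadjusted p under 0.05).

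Hjv, hemojuvelin, a BMP coreceptor of iron regulation, rose 2.29-fold at day 3 and 1.58-fold at day 9 (limma adjusted p = 5.20e-05 and 0.0161). Bmpr1a, a BMP receptor, rose 1.40-fold and 1.49-fold on those days (adjusted p = 0.0467 and 0.0270). Its day 3 call was lost whichever array was left out (adjusted p up to 0.203) and its day 9 call in 4 of 6 such fits (up to 0.115). Smad5, a transducer of BMP signals, rose 1.35-fold at day 9 (adjusted p = 0.0445), and Tmprss6, the protease that cleaves hemojuvelin, fell by 0.34 (adjusted p = 0.0491). Smad1 differed by 0.14 and Id1, a BMP target, by 0.18 at day 9, and neither passed. Among 15 TGF-beta ligands, receptors and responsive genes, Tgfbr2, a receptor, rose 1.57-fold at day 3. None passed at day 9 or day 23 (5 and 3 at an unadjusted p under 0.05).

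**Figure D4:**
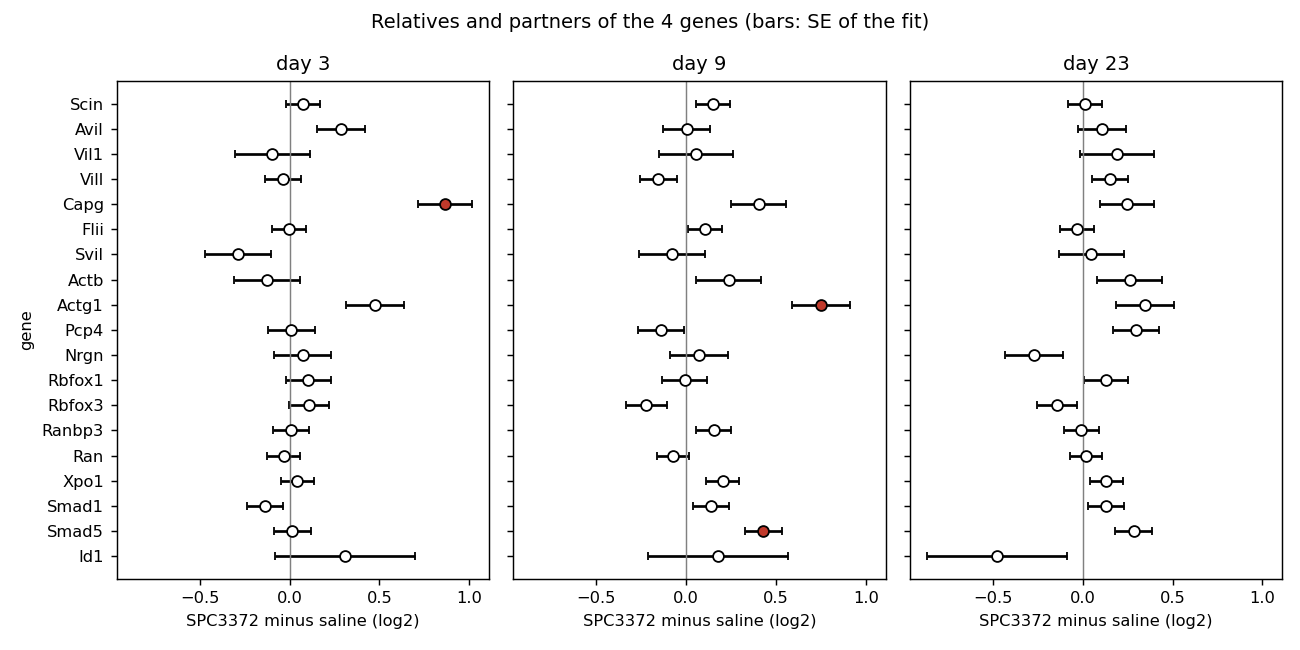
Difference between SPC3372 and saline mice on the log2 scale (horizontal axis) for the relatives and partners of the 4 genes (vertical axis) at days 3, 9 and 23, with bars for the SE of the fit. Red points passed limma at an adjusted p under 0.05. Capg passed at day 3, Actg1 and Smad5 passed at day 9, and none of the others shown passed.

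Markers of other liver cells were set beside these differences. Of 15 stellate cell and fibroblast markers, a cell class that also makes Gsn, 2 rose at day 9. Reln rose 1.55-fold and Hand2 1.45-fold (limma adjusted p = 0.0420 and 0.0458). The mean level of the list was 7.52 to 7.60 in treated and 7.31 to 7.47 in saline mice of day 9, and 14 of its 15 genes were above the median level. At day 3 the list was at 7.60 to 7.75 in treated and 7.56 to 7.70 in saline mice, and at day 23 at 7.41 to 7.67 in treated and 7.33 to 7.60 in saline mice. In the 11 other marker lists no gene passed at day 9, against 0 to 5 genes a list at an unadjusted p under 0.05.

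Of 13 Kupffer cell and macrophage markers 7 rose at day 3, among them Marco, 3.95-fold, and Clec4f, 2.06-fold, and none passed at day 9 (5 at an unadjusted p under 0.05). The 7 became 2 without treated replicate 2 or without saline replicate 1 or 2, 1 with the 3' to 5' covariate and 0 with the day's own arrays alone. At day 3 the list was at 8.97 to 9.60 in treated and 7.91 to 8.92 in saline mice, and at day 9 at 8.52 to 8.60 in treated and 8.14 to 8.51 in saline mice. At day 3 Gzma and Gzmb of 11 lymphocyte markers and Clec4g of 12 endothelial markers also rose. Mesothelial markers, 4 of 12 above the median level, were at 5.31 to 5.46 in treated and 5.24 to 5.32 in saline mice of day 9. Smooth muscle markers, 5 of 9 above the median level, were at 5.09 to 5.50 in treated and 4.88 to 5.12 in saline mice of day 9. At day 3 they were at 5.03 to 5.36 in treated and 5.08 to 5.49 in saline mice, and at day 23 at 5.16 to 5.57 in treated and 4.98 to 5.99 in saline mice. The array with the highest value of this list in its group also had the highest Gsn level in both groups of day 3 and of day 23, but in neither group of day 9. This was not particular to smooth muscle. For the mesothelial list it held in every group except the treated mice of day 9. For the stellate cell list it held in the treated mice of day 3 and both groups of day 23, and for the Kupffer cell list in no group. No marker passed at day 23 in any of the 12 lists (0 to 3 a list at an unadjusted p under 0.05). The part of these cells in the differences of the 4 genes was not tested.

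A measure of RNA quality, taken from the beta-actin control alone, also differed between the groups at days 3 and 9. The 3' minus 5' log2 difference of the beta-actin control, which is larger in more degraded RNA, was 1.03 ± 0.02 in treated and 0.80 ± 0.05 in saline mice of day 3 (SD, n = 3 each). It was 1.14 ± 0.02 in treated and 0.93 ± 0.06 in saline mice of day 9, and 1.15 ± 0.16 in treated and 1.16 ± 0.04 in saline mice of day 23. At days 3 and 9 it thus separated the groups completely, so RNA quality and drug cannot be told apart on those days. With this value as a covariate the day 9 difference was 0.91 for Gsn, 1.07 for Pcp4l1, 2.29 for Rbfox2 and -1.35 for Ranbp3l. The day 3 difference was then -0.07 for Gsn, -0.05 for Pcp4l1 and -0.04 for Rbfox2, so their day 3 differences were close to 0 with the covariate. The slope of the covariate comes from differences within groups, which were widest in the treated mice of day 23. The adjusted values carry that slope across the gap between the groups and do not separate RNA quality from drug.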

How the data were processed

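The deposited values are log2 expression levels that the authors made with RMA, per the submitters' processing notes. The sources used here give neither the RMA version nor the arrays that were normalized together. Because the values come with no genome build, symbols were taken from the platform annotation. Of 45101 probe sets, 64 array controls were left out and 45037 tested. Of these, 34945 had 1 symbol, 932 several and 9160 none.

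Means of 6 groups were fitted with limma (lmFit and eBayes; 12 residual and 5.10 prior degrees of freedom) on 18 arrays. Contrasts were treated minus saline within a day, the change of this difference between days, and saline day 9 minus saline day 3. P-values are two-sided, adjusted by Benjamini-Hochberg over all probe sets tested, with a threshold of 0.05. For other genes the probe set with the highest mean stands for the gene. The named genes are the 4, relatives set by name, up to 4 called genes per list and day, and 5 genes per measure of likeness. Members and the 21 gene lists were chosen with earlier results of these data known. Deviations of treated and saline arrays with the same replicate number within a day correlated at -0.10 to 0.08, so these numbers were not taken to pair mice. Alternatives covered normalization, filters, probe set choice, the prior, array choice, a replicate block, the 3' to 5' difference and the omission of each array. The fit was also tested on simulated data. Software was R (4.3.3) with limma (3.58.1) and data.table (1.17.8), and Python (3.11.15) with matplotlib (3.10.9).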

Additional observations from a re-analysis of the deposited data

Results flagged for a closer look

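The differences of Rbfox2 at day 3 and day 9 had opposite signs. Its brightest probe set, 1418245_a_at, differed between treated and saline mice by -0.72 at day 3, with every treated mouse below every saline mouse, and by 1.65 at day 9, with every treated mouse above. The groups of day 3 were 0.0099 apart, and the day 3 difference was -0.045 with the 3' to 5' covariate and -0.25 with the gene's probe sets averaged. The difference between the days was not tested, because Rbfox2 was chosen on these contrasts.

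Rai14, a gene of the actin list, also differed in its effect between the days. It was known from earlier results of these data to move between them, so the test is not independent. Its treated-minus-saline difference was 2.49 higher at day 9 than at day 3 (SE 0.23, limma adjusted p = 0.000212), with values of -3.90 at day 3 and -1.42 at day 9.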

How the results depend on the processing

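For the brightest probe sets of the 4 genes, 20 differences gave 388 recomputed values over all settings. Of these, 365 moved by less than the spread between mice, 19 moved further and 4 moved further and turned their sign. A turn of sign within that spread is counted among the 365. Such a turn arose for Rbfox2 at day 23, which ran from -0.31 to 0.27 with an array left out. Values that moved further than the spread are these. With the beta-actin 3' to 5' difference as a covariate, Gsn gave -0.067 at day 3, 0.91 at day 9 and 0.33 for day 23 minus day 9, Pcp4l1 gave -0.049, 1.07 and -0.28, and Rbfox2 gave -0.045, 2.29 and -2.25. With all probe sets of a gene averaged, which brings in the dim ones, Gsn gave 1.14 at day 9. Rbfox2 gave -0.25 at day 3, 0.50 at day 9, 0.75 for day 9 minus day 3 and -0.50 for day 23 minus day 9. Ranbp3l gave -0.74 at day 9, -0.63 for day 9 minus day 3 and 0.54 for day 23 minus day 9. With the p0617 arrays of the treated mice, Rbfox2 gave 0.47 at day 23 and -1.18 for day 23 minus day 9, and Ranbp3l gave 0.31 and 1.64. Leaving out 1 array at a time gave 0.80 to 1.65 for Gsn at day 23 and -0.85 to -0.0061 for its day 23 minus day 9.

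Of the other probe sets, signs turned beyond the spread between mice with the covariate for Gsn 1436991_x_at (-0.12 at day 3, 0.58 for day 23 minus day 9), 1437171_x_at (-0.23 and 0.59), 1415812_at (-0.032 and 0.29) and 1456568_at (0.15 at day 3, 0.022 at day 9). Turns within that spread also arose with an array left out. Day 23 minus day 9 then reached 0.44 in 1436991_x_at, 0.39 in 1437171_x_at and 0.093 in 1415812_at. Rbfox2 1434938_at gave 0.10, 0.13 and -0.11 (day 3, day 9, day 23 minus day 9) with the covariate and -0.16 and -0.094 (day 23, day 23 minus day 9) with p0617. Ranbp3l 1455707_at gave 0.16 for day 23 minus day 9 with p0617. The causes were not tested.

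The 1065 probe sets called at day 3 became 138 with the covariate, 302 with the day's own arrays, which leaves fewer samples, and 523 (without treated replicate 1) to 993 with an array left out. The 719 at day 9 became 411 with gene means, 282 with the covariate, 186 with own arrays and 253 (without treated replicate 3) to 762 with an array left out. The 55 at day 23 became 29 with median centring, 184 with probe sets above the median, 159 with an intensity trend and robust prior, 85 with all 21 arrays, 379 with p0617, 106 with the covariate, 1 with own arrays and 9 (without saline replicate 3) to 150 (without treated replicate 1) with an array left out. The replicate block gave 844, 576 and 13 calls at the 3 days. Of the named list calls, 8 of 20 at day 3 and 2 of 13 at day 9 held whichever array was left out. RMA compresses differences of dim probe sets, so the 6 members below the median level limit what can be seen.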
